A study of Mus musculus with 6 samples.

Results

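The 9 genes described here write, maintain, remove or read methyl groups on cytosine in DNA. They were taken by gene symbol from the count tables, where Dnmt1, Dnmt3a, Dnmt3b, Uhrf1, Tet1, Tet2, Tet3, Mbd1 and Mbd2 were all found among 55341 genes, and all 9 were among the 16729 genes with enough counts to be tested. The RNA came from cultures of mouse cerebellar granule neurons (CGNs), the small excitatory neurons that make up most of the cells of the cerebellum. Per the study's methods, progenitors were isolated on a Percoll gradient from the cerebella of CD1-IGS mice aged P6-P8, a replicate was made of cerebella pooled from litters, and cytosine arabinoside was added at DIV2 (day in vitro 2) to all cultures to block division of non-neuronal cells. At DIV3, 3 cultures received GSK-126, an inhibitor of the H3K27 methyltransferase EZH2, and 3 received only its vehicle DMSO, and RNA was collected at DIV5. The labels name cerebellum and DIV3, give no genotype beyond the species, and neither they nor the study's methods give the dose used at DIV3. The question was how blocking EZH2, after the first wave of H3K27me3 has been laid down, changes gene expression in maturing neurons.

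In mammals DNMT3A and DNMT3B place new methyl groups on cytosine. DNMT1 copies existing methylation onto the new strand after DNA replication, and UHRF1 brings DNMT1 to half-methylated CpG sites. The TET dioxygenases TET1, TET2 and TET3 oxidise 5-methylcytosine to 5-hydroxymethylcytosine and further, using iron and 2-oxoglutarate, and MBD1 and MBD2 are proteins that bind methylated CpG. In maturing neurons DNMT3A is the main enzyme that adds methylation, also outside CpG, and 5-hydroxymethylcytosine reaches higher levels than in most other tissues. These data hold RNA levels alone and no measurement of DNA methylation.

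With GSK-126, Tet1, Tet3 and Dnmt3a were lower than with DMSO in all 3 replicate pairs, by 32.2%, 20.6% and 18.9% in the fit that compares libraries within pairs, and each passed the test in that fit. The maintenance genes Dnmt1 and Uhrf1, the third dioxygenase gene Tet2, the scarce Dnmt3b and the readers Mbd1 and Mbd2 did not pass in any fit. In the edgeR fit without the pairing, 0 of the 9 genes passed, as did 0.0% of all genes tested (1 of the 9, Tet1, at an unadjusted p under 0.05, where 3.98% of all genes were), and DESeq2 without the pairing called 0 of the 9 and 21 of all genes. Every call given here therefore rests on the pairing of libraries by replicate number. With pair 2 left out, whose DMSO library stood apart, 1 of the 3 calls remained, that of Tet3.

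The promoters of the genes with a call, and of Tet2 as the dioxygenase gene without one, are shown as a description. Over the 6 libraries the log2 levels of Tet2 correlated with those of Dnmt3a, Tet3 and Tet1 (Pearson's r 0.941, 0.905 and 0.860). These correlations also hold the differences between replicates, so they do not show a shared change with GSK-126. The ratio of Tet1 to Tet2 did not overlap between the groups, as given below. Each window runs from 250 bases before to 50 bases after a transcript start in RefSeq (GRCm38.p6), is written 5′ to 3′ on the strand of the gene, and has its CpG dinucleotides, the main target of these enzymes, in capitals. The windows are chr10:62887275-62887574 on the minus strand for Tet1, chr6:83441629-83441928 on the minus strand for Tet3, chr12:3806910-3807209 on the plus strand for Dnmt3a and chr3:133544341-133544640 on the minus strand for Tet2.
Tet1: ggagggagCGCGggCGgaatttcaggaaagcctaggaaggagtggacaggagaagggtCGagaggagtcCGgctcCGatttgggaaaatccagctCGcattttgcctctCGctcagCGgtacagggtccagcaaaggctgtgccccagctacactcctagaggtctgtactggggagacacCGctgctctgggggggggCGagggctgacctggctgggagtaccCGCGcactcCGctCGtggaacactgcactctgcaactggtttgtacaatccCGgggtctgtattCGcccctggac
Tet3: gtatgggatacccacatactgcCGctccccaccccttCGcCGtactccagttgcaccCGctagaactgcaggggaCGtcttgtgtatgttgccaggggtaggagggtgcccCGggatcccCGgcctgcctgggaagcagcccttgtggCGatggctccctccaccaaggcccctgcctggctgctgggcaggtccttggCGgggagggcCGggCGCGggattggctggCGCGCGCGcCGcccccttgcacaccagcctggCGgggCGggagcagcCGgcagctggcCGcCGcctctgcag
Dnmt3a: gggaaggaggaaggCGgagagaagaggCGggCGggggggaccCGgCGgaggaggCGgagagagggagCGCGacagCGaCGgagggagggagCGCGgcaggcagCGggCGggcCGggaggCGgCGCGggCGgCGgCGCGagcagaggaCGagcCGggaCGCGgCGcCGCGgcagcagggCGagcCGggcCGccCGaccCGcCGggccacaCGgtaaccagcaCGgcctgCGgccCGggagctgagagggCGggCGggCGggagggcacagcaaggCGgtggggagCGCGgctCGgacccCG
Tet2: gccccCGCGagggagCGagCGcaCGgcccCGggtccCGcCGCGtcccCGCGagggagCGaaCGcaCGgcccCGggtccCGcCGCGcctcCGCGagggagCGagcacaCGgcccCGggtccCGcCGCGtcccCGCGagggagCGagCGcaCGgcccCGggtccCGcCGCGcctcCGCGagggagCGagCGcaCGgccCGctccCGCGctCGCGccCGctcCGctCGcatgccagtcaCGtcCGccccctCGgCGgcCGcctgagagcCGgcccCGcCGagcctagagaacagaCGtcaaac
The Tet1 window holds 17 CpG, that of Tet3 22, that of Dnmt3a 47 and that of Tet2 57, where the median of the 32851 windows in the RefSeq table is 7.0. Of all windows, 68.6% hold fewer CpG than that of Tet1, 76.9% fewer than that of Tet3, 98.6% fewer than that of Dnmt3a and 99.8% fewer than that of Tet2. The GC box GGGCGG, read on both strands and overlapping 1 CpG each time, occurs in all 4 windows, with 1 copy for Tet1, 2 for Tet3, 7 for Dnmt3a and 1 for Tet2, and in 35.7% of all windows. The TATA box TATAAA, read on both strands, occurs in none of the 4 windows and in 13.6% of all windows. Dnmt3a also has an earlier start, whose window at chr12:3806730-3807029 holds 46 CpG and overlaps the window shown. A later start of Dnmt3a inside the gene at chr12:3891494-3891793, with 18 CpG in its window, gives a shorter protein. All 4 windows shown lie inside the genes as GENCODE annotates them, downstream of the outermost start. Reads were counted per gene, so that products of different starts of one gene were not told apart.

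Levels are given as CPM, the counts of a library divided by its total on genes after scaling with edgeR's TMM factors. Tet1 (ENSMUSG00000047146.17, chromosome 10, 62804570 to 62908996, minus strand) encodes a dioxygenase whose full-length form carries a CXXC domain that binds unmethylated CpG. It had 60.3, 98.9 and 71.0 CPM in DMSO replicates 1, 2 and 3 and 44.6, 52.4 and 56.9 CPM in GSK-126 replicates 1, 2 and 3, from 426 to 1061 counts per library. Every GSK-126 library was below every DMSO library, which held for 9.44% of all genes tested in either direction. The DMSO libraries averaged 76.8 ± 19.9 CPM and the GSK-126 libraries 51.3 ± 6.25 CPM (SD, n = 3 each). An exact two-sided permutation test of log2 CPM gave p = 0.1, which is as low as 3 libraries a group can reach. The log2 difference within pairs 1, 2 and 3 was -0.43, -0.91 and -0.32, so that pair 2 was the furthest apart. With the replicate number as a block, the log2 fold change was -0.56 (standard error 0.11, 95% interval -0.79 to -0.34, adjusted p = 0.00208 in edgeR, by the quasi-likelihood method, over all genes). Without the block it was -0.58 (standard error 0.20, edgeR, unadjusted p = 0.0190, adjusted p = 0.953). The call was lost when pair 2 was left out, with a log2 fold change of -0.38 and an adjusted p of 0.0595 (edgeR, replicate block).

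Tet3 (ENSMUSG00000034832.15, chromosome 6, 83362373 to 83459084, minus strand) is the dioxygenase gene with the highest level in these cultures. It had 137, 201 and 166 CPM in DMSO replicates 1, 2 and 3 and 113, 159 and 127 CPM in GSK-126 replicates 1, 2 and 3. The groups overlapped, since replicate 2 of GSK-126 lay above replicate 1 of DMSO, but each GSK-126 library was below the DMSO library with its number. The differences within pairs were the most alike of the 3 called genes, at -0.27, -0.34 and -0.38 on the log2 scale in pairs 1, 2 and 3. The groups averaged 168 ± 32.0 and 133 ± 23.3 CPM (SD, n = 3 each; exact permutation test, two-sided, p = 0.2). With the block the log2 fold change of Tet3 was -0.33 (standard error 0.075, 95% interval -0.49 to -0.18, edgeR, adjusted p = 0.00717), and without it -0.34 (standard error 0.18, edgeR, adjusted p = 0.953). Leaving out pair 3 moved it to -0.31 with an adjusted p of 0.0540, just past the threshold, while without pair 2 it was -0.33 with an adjusted p of 0.0235 (edgeR, replicate block).

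Tet2 (ENSMUSG00000040943.12, chromosome 3, 133463679 to 133545139, minus strand) encodes the dioxygenase that lacks a CXXC domain of its own. Its levels were 49.5, 69.6 and 56.7 CPM in DMSO replicates 1, 2 and 3 and 50.5, 55.1 and 50.5 CPM in GSK-126 replicates 1, 2 and 3. Pair 1 was level, with a log2 difference of 0.028, while pairs 2 and 3 were at -0.33 and -0.16. With the block the log2 fold change was -0.16 with a 95% interval from -0.37 to 0.050 (edgeR, adjusted p = 0.385), an interval that includes both no change and the estimate for Tet3. The log2 ratio of Tet1 to Tet2 within a library, which no scaling of libraries can move, was 0.29, 0.51 and 0.33 in DMSO replicates 1, 2 and 3 and -0.18, -0.072 and 0.17 in GSK-126 replicates 1, 2 and 3. That ratio did not overlap between the groups and changed by -0.40 ± 0.22 over the pairs (SD, n = 3). An exact two-sided permutation test gave p = 0.1, the lowest value that design can give. Among the ratios computed, only that of Tet1 to Tet2 did not overlap. The others were Tet3 to Tet2, Tet1 to Tet3, Dnmt3a to Dnmt1, Uhrf1 to Dnmt1, Dnmt3a to Tet3 and Mbd2 to Mbd1. Tet1 alone already did not overlap between the groups, so its ratio to Tet2 is not independent of that result. How often ratios of other gene pairs do not overlap was not tested. The ratio of Tet3 to Tet2 changed by -0.30, -0.0029 and -0.22 in pairs 1, 2 and 3 and overlapped between the groups.

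**Figure D1:**
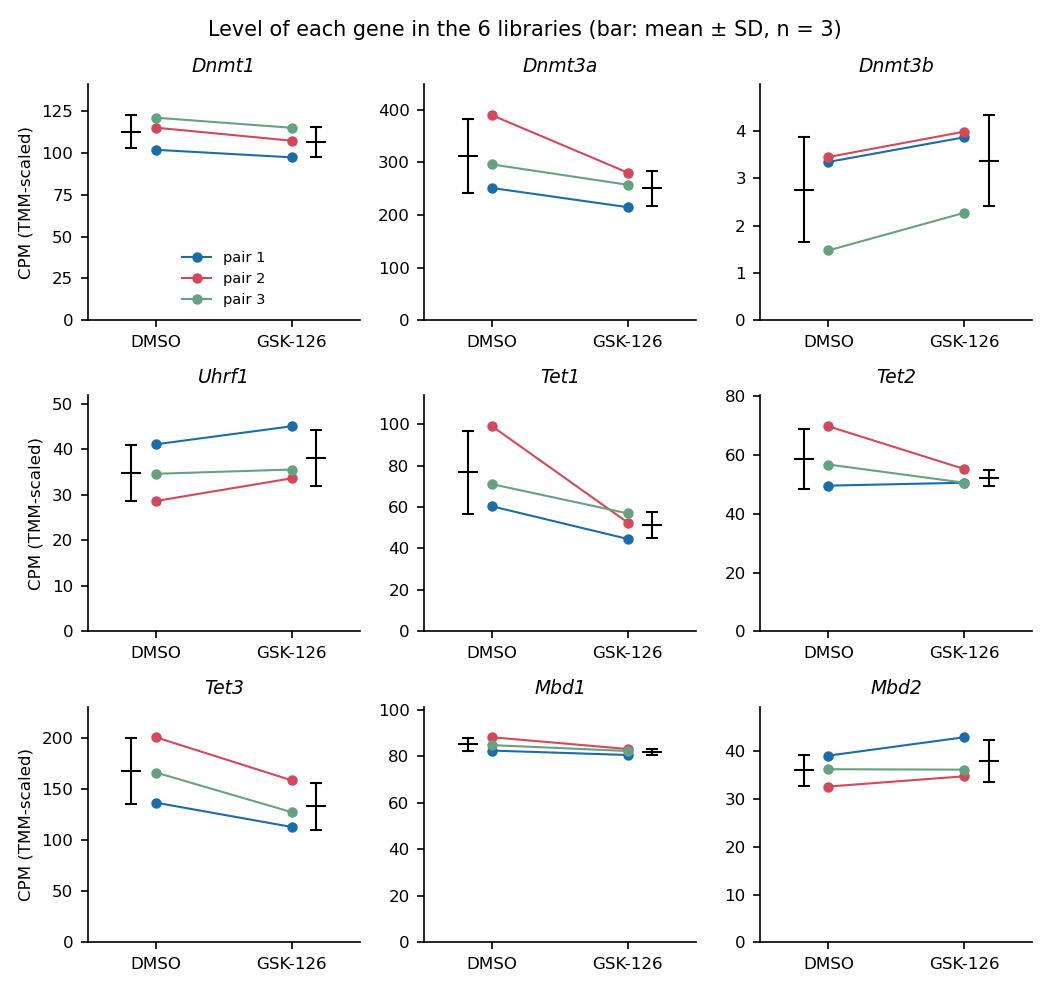
CPM scaled by TMM (y axis, from 0) of each of the 9 genes in DMSO and GSK-126 libraries (x axis), with lines joining libraries of the same replicate number and black bars for the mean ± SD of 3 libraries. All 3 lines go down for Tet1, Tet3 and Dnmt3a, and by less for Dnmt1 and Mbd1, and for Tet1 alone the points of the groups do not overlap.

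Among the methyltransferase genes, Dnmt3a (ENSMUSG00000020661.15, chromosome 12, 3806007 to 3914443, plus strand) had 251, 390 and 296 CPM in DMSO replicates 1, 2 and 3 and 215, 281 and 258 CPM in GSK-126 replicates 1, 2 and 3. It was the most abundant of the 9 genes in counts, with 1928 to 4179 per library, so that counting error was at most 2.28% of a value. DMSO replicate 2 stood highest, and the groups overlapped because DMSO replicate 1 lay below GSK-126 replicates 2 and 3. Within pairs 1, 2 and 3 the log2 difference was -0.23, -0.47 and -0.20. Dnmt3a averaged 312 ± 70.5 CPM in the DMSO group and 251 ± 33.2 CPM in the GSK-126 group (SD, n = 3 each; exact permutation test, two-sided, p = 0.3). The log2 fold change with the block was -0.30 (standard error 0.075, 95% interval -0.46 to -0.15, edgeR, adjusted p = 0.0140), and without it -0.32 (standard error 0.19, edgeR, adjusted p = 0.953). Without pair 2 the blocked value was -0.21 and no longer passed (edgeR, adjusted p = 0.107). Of the exons of Dnmt3a, 133 bp (0.799%) overlap Dnmt3aos on the opposite strand, and the strand setting of the counting is not given in the sources used here.

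Dnmt1 (ENSMUSG00000004099.16, chromosome 9, 20907209 to 20959888, minus strand), the maintenance enzyme, had 102, 115 and 121 CPM in DMSO replicates 1, 2 and 3 and 97.2, 107 and 115 CPM in GSK-126 replicates 1, 2 and 3. Each GSK-126 library was slightly below its partner, at -0.065, -0.10 and -0.073 on the log2 scale in pairs 1, 2 and 3. The blocked log2 fold change was -0.080 with a 95% interval from -0.24 to 0.083 (edgeR, adjusted p = 0.608). That interval leaves out a drop as large as the blocked estimate for Tet1, Tet3 or Dnmt3a. Without the block the 95% interval of Dnmt1 was wider, -0.37 to 0.20, and included the unblocked estimates for Tet3 and Dnmt3a, -0.34 and -0.32. Uhrf1 (ENSMUSG00000001228.14, chromosome 17, 56303321 to 56323486, plus strand), the partner that recruits DNMT1, moved the other way in all 3 pairs, with 41.1, 28.6 and 34.6 CPM in DMSO replicates 1, 2 and 3 and 45.0, 33.6 and 35.5 CPM in GSK-126 replicates 1, 2 and 3. Its blocked log2 fold change of 0.13 had a 95% interval from -0.10 to 0.37 and did not pass (edgeR, adjusted p = 0.540). Dnmt3b (ENSMUSG00000027478.15, chromosome 2, 153649450 to 153687730, plus strand), the other de novo methyltransferase, was read by only 17 to 51 counts per library. Its levels were 3.35, 3.45 and 1.48 CPM in DMSO replicates 1, 2 and 3 and 3.87, 3.98 and 2.27 CPM in GSK-126 replicates 1, 2 and 3. Counting error alone was 14.0% to 24.3% of these values, and the blocked 95% interval of the log2 fold change, -0.39 to 1.02, runs from a lower to a much higher level, so that no change of Dnmt3b was detectable at this depth (edgeR, adjusted p = 0.650).

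Neither reader gene passed the test. Mbd1 (ENSMUSG00000024561.10, chromosome 18, 74267605 to 74282732, plus strand) had 82.5, 88.2 and 84.8 CPM in DMSO replicates 1, 2 and 3 and 80.6, 83.1 and 82.3 CPM in GSK-126 replicates 1, 2 and 3. Its blocked log2 fold change was -0.054, with a 95% interval from -0.23 to 0.12 (edgeR, adjusted p = 0.767). Mbd2 (ENSMUSG00000024513.16, chromosome 18, 70568189 to 70626131, plus strand), whose protein joins the NuRD repressor complex, had 39.0, 32.5 and 36.2 CPM in DMSO replicates 1, 2 and 3 and 42.8, 34.7 and 36.1 CPM in GSK-126 replicates 1, 2 and 3. Its blocked log2 fold change was 0.076, with a 95% interval from -0.16 to 0.31 (edgeR, adjusted p = 0.755). In the fit without the block, its sign turned when GSK-126 replicate 1 was left out.

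**Figure D2:**
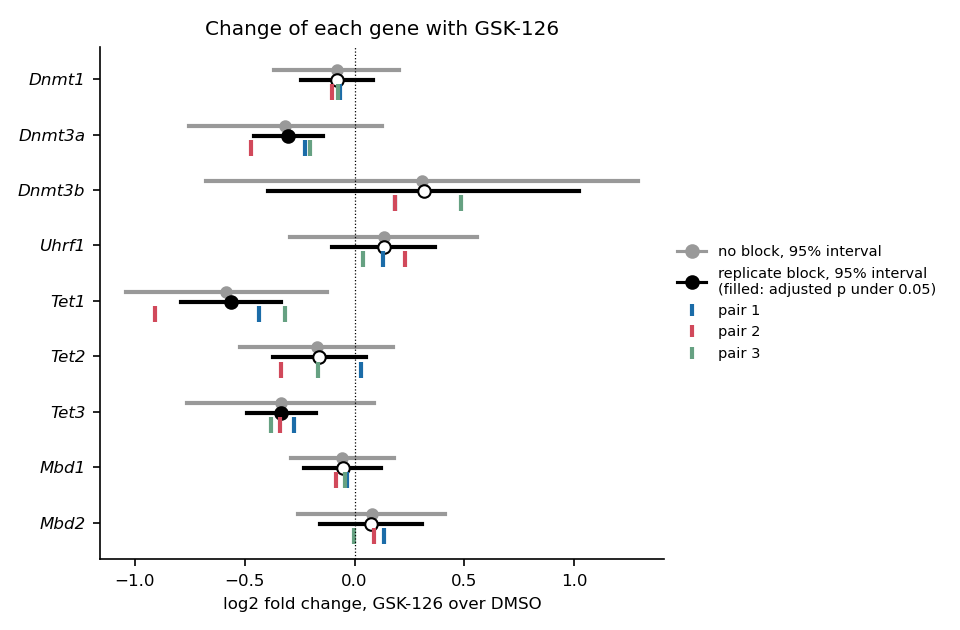
Log2 fold change of GSK-126 over DMSO (x axis) for each gene (y axis), from the fit without the block (grey) and with the replicate block (black), each with its 95% interval, and the log2 difference in each pair as coloured ticks. Filled black points mark the 3 genes with an adjusted p under 0.05 in the blocked fit, Tet1 at -0.56, Tet3 at -0.33 and Dnmt3a at -0.30.

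Of the 9 genes, 3 were called lower and 0 higher with the block, against 5.09% of all genes tested called lower and 3.35% called higher (edgeR; DESeq2 with the block also called 3 lower and 0 higher, and 0 were higher at an unadjusted p under 0.05). The split over all genes moved with the scaling, from 561 higher and 851 lower with TMM to 727 and 698 with upper-quartile factors and 714 and 707 with total counts, while Tet1, Tet3 and Dnmt3a were called lower under each. The median blocked log2 fold change of the 9 genes was -0.080, and that of all genes tested was -0.0056. In 5 of the 9 genes all 3 pairs were lower with GSK-126, as in 22.8% of all genes tested, and in 2 of them, Dnmt3b and Uhrf1, all 3 were higher, as in 19.5%.

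Levels of different genes were compared per kilobase of annotated exon. With DMSO the order was Dnmt3a at 18.8 ± 4.24, Dnmt1 at 15.3 ± 1.33, Mbd1 at 12.7 ± 0.429, Mbd2 at 11.2 ± 1.01, Tet3 at 10.1 ± 1.92, Uhrf1 at 8.16 ± 1.46, Tet1 at 4.97 ± 1.29, Tet2 at 3.47 ± 0.606 and Dnmt3b at 0.540 ± 0.217 CPM per kb (SD, n = 3). Among neighbours in this order, the ranges over libraries overlapped for Dnmt3a and Dnmt1, Mbd2 and Tet3, Tet3 and Uhrf1, and Tet1 and Tet2. With GSK-126 Dnmt3a was at 15.1 ± 2.00 and Dnmt1 at 14.4 ± 1.20 CPM per kb (SD, n = 3), and Dnmt3a was above Dnmt1 in 1 of 3 libraries where it had been above it in 3 of 3 with DMSO. The log2 ratio of Dnmt3a to Dnmt1 overlapped between the groups (exact permutation test, two-sided, p = 0.3). Tet3, at 7.96 ± 1.40 CPM per kb, had a lower mean than Uhrf1 at 8.93 ± 1.44, with ranges that overlapped as they did with DMSO, and Tet1 and Tet2 lay close together at 3.32 ± 0.404 and 3.08 ± 0.159 CPM per kb (SD, n = 3 each). The summed level of the 3 dioxygenase genes was 18.5 ± 3.79 CPM per kb with DMSO and 14.4 ± 1.76 with GSK-126 (SD, n = 3 each). Tet3 made up 54.5% ± 1.14 of that sum with DMSO and 55.2% ± 3.08 with GSK-126, while the share of Tet1 was 26.7% ± 1.49 and 23.2% ± 2.39 and that of Tet2 was 18.9% ± 0.614 and 21.6% ± 1.82 (SD, n = 3 each). The exon lengths are those of all transcripts of a gene merged, 16642 bp for Dnmt3a and 3214 bp for Mbd2, so that a gene with long exons that are little used is read too low.

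**Figure D3:**
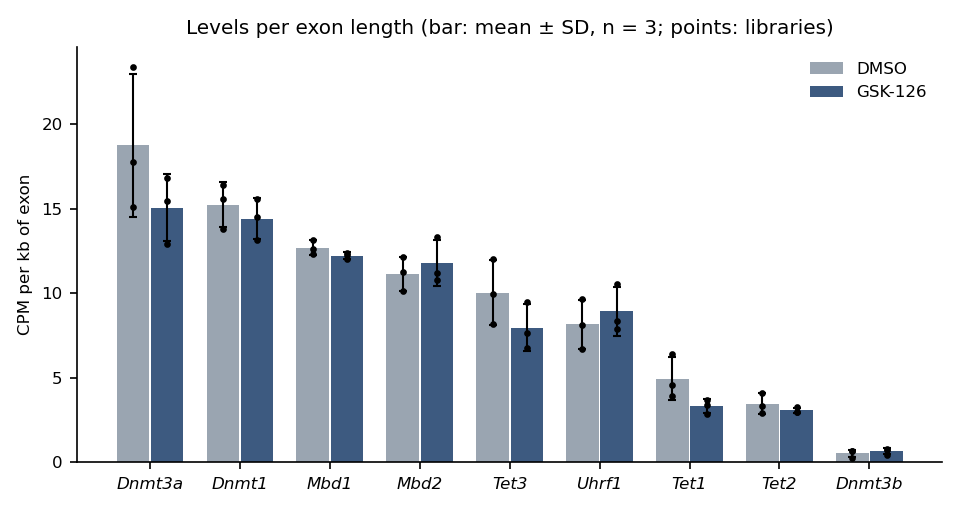
CPM per kb of merged exon (y axis) of the 9 genes (x axis) in DMSO and GSK-126 libraries, with bars for the mean, error bars for the SD of 3 libraries and points for single libraries. Dnmt3a and Dnmt1 have the highest means, and Dnmt3b is near 0, in both groups.

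Across the 6 libraries, replicate 2 of the DMSO group stood apart. Dnmt3a, Tet1, Tet2, Tet3 and Mbd1 were each highest in it, and Uhrf1 and Mbd2 each lowest. The summed level of 8 genes of mature CGNs, among them Gabra6 and Slc17a7, was 1688 CPM in that library, 591 and 716 CPM in the other DMSO libraries and 318 to 838 CPM with GSK-126, and all 8 were called lower with the block. The sum of a list of 8 CGN genes ranged from 3586 to 5558 CPM with DMSO and from 2906 to 4319 CPM with GSK-126, with 5 of them called lower and 1, Tubb3, called higher. The log2 change of its sum was -0.30, -0.36 and -0.37 in pairs 1, 2 and 3. Beside it stand -0.27, -0.34 and -0.38 for Tet3, -0.23, -0.47 and -0.20 for Dnmt3a, and -0.43, -0.91 and -0.32 for Tet1. The sum of the mature CGN genes changed by more, -0.89, -1.01 and -0.81. Single genes of the CGN list had blocked log2 fold changes from -1.17 for Etv1 to 0.40 for Tubb3. The part that CGN content or maturation plays in the changes of Tet1, Tet3 and Dnmt3a was not tested, and in RNA of whole cultures fewer cells of a type and less RNA per cell cannot be told apart.

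Genes of other cells were present in all libraries. The astroglial list of 7 genes ranged from 2492 to 7336 CPM with DMSO and from 2303 to 7673 CPM with GSK-126, with 1 of the 7, S100b, called higher, and its sum changed by 0.065, -0.11 and -0.020 on the log2 scale in pairs 1, 2 and 3. In both groups the astroglial sum, Uhrf1 and Mbd2 were each highest in replicate 1 and lowest in replicate 2. So were the sums of the microglial, oligodendrocyte lineage and cell cycle lists described below, so that this order is not particular to astroglia. The microglial list of 7 genes ranged from 190 to 429 CPM with DMSO and from 283 to 528 CPM with GSK-126, with 3 called higher, and its sum changed by 0.30, 0.58 and 0.23 on the log2 scale in pairs 1, 2 and 3. Meningeal fibroblast genes summed to 4705 to 6449 CPM with DMSO and 5740 to 7013 CPM with GSK-126, with 1 of 4, Col1a2, called higher, and log2 changes of 0.33, 0.083 and 0.12 in the pairs. The part of these cells in the levels of the 9 genes was not tested. The oligodendrocyte lineage list ranged from 433 to 747 and from 502 to 762 CPM, with 1 of 8 called higher, and the endothelial and mural list from 137 to 214 and from 186 to 265 CPM, with 1 of 6 called higher. In pairs 1, 2 and 3 these sums changed by 0.029, 0.21 and 0.19 on the log2 scale for the oligodendrocyte lineage and by 0.51, 0.22 and 0.31 for endothelial and mural cells. Genes of Purkinje cells and interneurons summed to 195 to 227 CPM with DMSO and 150 to 183 CPM with GSK-126, with 3 of 6 called lower, and log2 changes of -0.25, -0.29 and -0.60 in the pairs. No list had a gene at 0 in all 6 libraries.

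Dnmt1 and Uhrf1 act at replication forks, and they were therefore set beside genes of the cell cycle. The 12 cell cycle genes, among them Mki67, Top2a and 6 MCM genes of the replicative helicase, summed to 471 to 663 CPM with DMSO and 482 to 746 CPM with GSK-126. Of these 12, 0 were called in either direction with the block by edgeR or DESeq2, and 1, Mcm2, had an unadjusted p under 0.05 in edgeR. The log2 change of their sum was 0.17, 0.034 and 0.063 in pairs 1, 2 and 3. Mcm2, Mcm3, Mcm4, Mcm5, Ccna2 and Rrm2 were higher in all 3 pairs, as were 19.5% of all genes tested, and the others went both ways. Pcna, a replication gene that is not on this list, was called higher with the block and is given below. The list of 6 CGN progenitor genes was higher in all 3 pairs, by 0.47, 0.50 and 0.23 on the log2 scale, with Ccnd2 and Barhl1 called higher, while Atoh1 and Gli1 had too few counts to be tested.

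**Figure D4:**
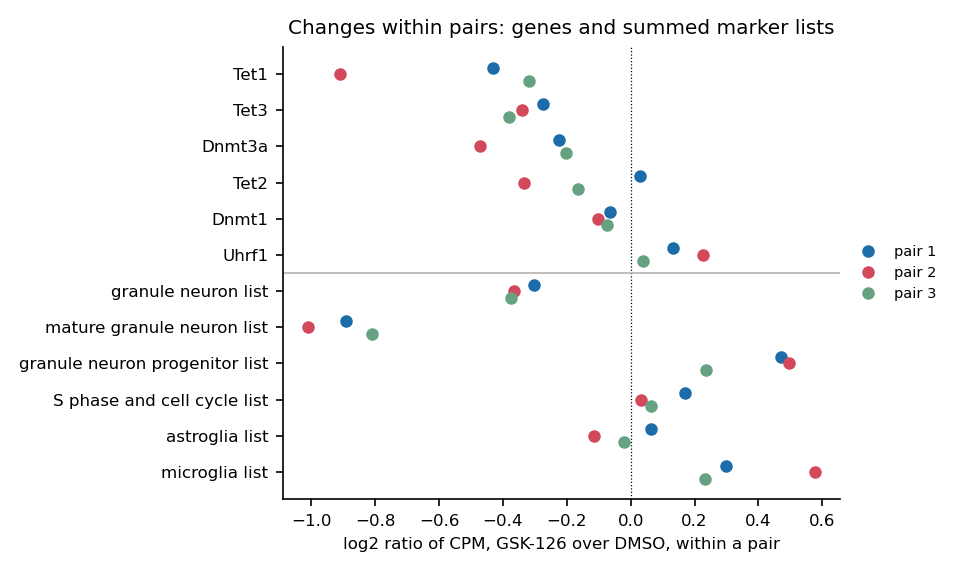
Log2 ratio of CPM, GSK-126 over DMSO, within each replicate pair (x axis) for 6 of the genes and for the summed CPM of 6 marker lists (y axis). The Tet3 points, from -0.38 to -0.27, overlap those of the CGN list, from -0.37 to -0.30, and Dnmt1 and the cell cycle list stay within 0.17 of 0. Those of the mature CGN list lie lower, from -1.01 to -0.81.

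A list of 59 other genes of DNA methylation, taken from general knowledge, placed the 9 genes among their partners. Of these, 54 were tested, 0 passed without the block (edgeR, with 2 at an unadjusted p under 0.05, and 0 with DESeq2), and with the block 2 were called higher and 5 lower. This share of 7 in 54 stands beside 8.44% of all genes tested that were called in either direction. The median blocked log2 fold change of the 54 genes was -0.068, with 33 lower and 21 higher, beside 8509 lower of all 16729 genes tested.

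Among partners of the dioxygenases, Idh1, which makes the 2-oxoglutarate that TET enzymes consume, had 120, 96.5 and 102 CPM in DMSO replicates 1, 2 and 3 and 164, 165 and 156 CPM in GSK-126 replicates 1, 2 and 3. Idh1 rose by 0.61 on the log2 scale (standard error 0.081, edgeR with the block, adjusted p = 5.7e-05), with no overlap between the groups. Ogt, whose O-GlcNAc transferase binds TET proteins, fell from 415 ± 80.8 to 321 ± 55.3 CPM (SD, n = 3 each), a blocked log2 fold change of -0.37 (standard error 0.071, edgeR, adjusted p = 0.00213). Idh1 and Ogt were the only 2 of the 7 called partners that passed in every fit with the block. The other 12 tested genes of this group, with the glycosylase genes Tdg, Smug1, Mbd4, Neil1 and Neil2 among them, did not pass.

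Among partners of the methyltransferases, Pcna, the replication clamp that DNMT1 binds, was called higher, at 61.2 ± 13.5 CPM in the DMSO and 78.1 ± 12.9 CPM in the GSK-126 group (SD, n = 3 each; log2 fold change 0.36, edgeR with the block, adjusted p = 0.0139). The other 7 tested genes of that group, such as Uhrf2, Hells and Usp7, did not pass. Dnmt3l, Dnmt3c and Dppa3, which act in germ cells and early embryos, had too few counts to be tested, and Dppa3 had 0 counts in every library. In the methyl donor cycle, Mat2b, the regulatory subunit of the enzyme that makes S-adenosylmethionine, fell from 68.4 ± 8.24 to 51.5 ± 6.65 CPM (SD, n = 3 each; log2 fold change -0.41, edgeR with the block, adjusted p = 0.00923). Its catalytic partner Mat2a was listed at 0 in all 6 libraries, and 508 bp (11.3%) of its exons overlap Particl on the opposite strand. Most cells use Mat2a, so the 0 is not read as absence of its RNA, and its cause was not tested.

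Among the genes listed as readers or as their silencing partners was Mbd5, which shares the MBD fold. Binding of its protein to methylated CpG was not measured here. Mbd5 had 67.1 ± 7.09 CPM in the DMSO and 53.9 ± 7.61 CPM in the GSK-126 group (SD, n = 3 each; log2 fold change -0.32, edgeR with the block, adjusted p = 0.0360). Atf7ip, which binds MBD1 and the H3K9 methyltransferase SETDB1, had a blocked log2 fold change of -0.31 (edgeR, adjusted p = 0.0150), and the NuRD subunit gene Gatad2b one of -0.27 (edgeR, adjusted p = 0.0370). The calls of Mbd5 and Gatad2b were made in that fit alone and were lost in the blocked fits with DESeq2 (adjusted p = 0.135 and 0.0854), with upper-quartile factors, with total counts and with any pair left out. On the opposite strand, 136 bp of Mbd5 exons overlap Orc4 and 247 bp of Gatad2b exons overlap 4930537H20Rik. The other 11 tested genes of the silencing group, with Chd4, Hdac1, Hdac2 and Setdb1 among them, did not pass. None of the 6 CXXC genes, such as Kmt2a and Kdm2b, was called with the block by edgeR or DESeq2 (1 at an unadjusted p under 0.05 in edgeR). Of the 7 called partners, Pcna, Mat2b and Atf7ip kept the call with DESeq2, upper-quartile factors and total counts, and each lost it in at least 1 fit that left out a pair.

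**Figure D5:**
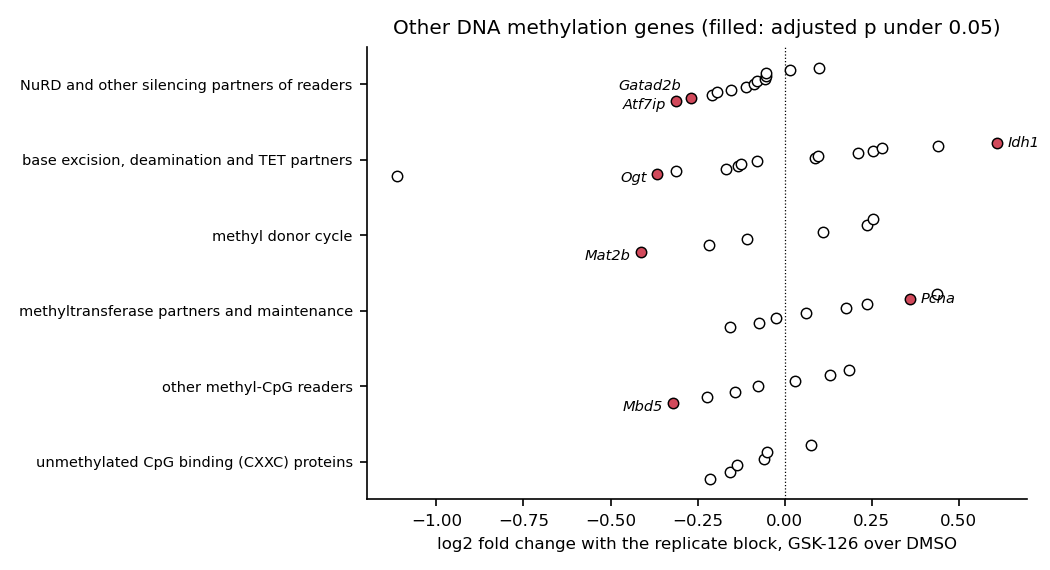
Blocked log2 fold change of GSK-126 over DMSO (x axis) of the 54 tested partner genes, grouped by role (y axis), 1 point a gene. Filled points are the 7 genes with an adjusted p under 0.05, from Mat2b at -0.41 to Idh1 at 0.61.

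The genes whose levels over the 6 libraries were most like those of the called genes were looked up among 13235 tested genes with a mean of at least 5 CPM. For Tet3 these were Lin7a, Slitrk1 and Gm9899 (Pearson's r of log2 CPM 0.999, 0.999 and 0.997), for Dnmt3a they were Dock4, Ube2n and Mppe1 (r = 0.998, 0.997 and 0.997), and for Tet1 Onecut2, Paip2 and Pcsk2os2 (r = 0.997, 0.994 and 0.992). For Tet2 they were 1700037C18Rik, Zfp933 and Cdc40, for Mbd1 Zfp644, Peg3 and Inpp1, for Mbd2 Cdc14a, Slc38a10 and Apopt1, and for Uhrf1 Mt2, Tsc22d4 and Gm45774, all with r of 0.991 or more. Dnmt1 was most like Arfgef2, Setbp1 and Gm44081 (r = 0.991, 0.990 and 0.989) and Dnmt3b most like Krt222, Slc41a2 and Rcl1 (r = 0.987, 0.986 and 0.984). With 6 libraries that share pairs and depth such values are common, since 1300 genes had an r over 0.9 with Tet3, 1240 with Dnmt3a and 561 with Tet1, and they are a description without a test.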

How the data were processed

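RNA of 6 mouse CGN cultures (3 DMSO, 3 GSK-126, grouped by the sample labels) was read as poly-A enriched paired reads. Per the study's methods and processing notes, the authors trimmed reads with Trimmomatic 0.38, aligned them to GRCm38 with STAR 2.7.2b, counted them on exons with HTSeq and deposited raw counts per gene, with no normalization. The annotation release is not named, but the 55341 symbols in the tables are exactly those of GENCODE M21, which gave coordinates and exon lengths. Lines that name no gene (58.7% to 60.7% of the reads listed) were left out. Counts on genes ranged from 7407189 to 13092763 per library, and no library was a copy of another (chi-square per degree of freedom 9.01 or more).

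Genes kept by filterByExpr were tested in R 4.3.3 with edgeR 4.0.16 (TMM, quasi-likelihood test, Benjamini-Hochberg adjustment over all genes, threshold 0.05), without a block, and DESeq2 1.42.0 was an alternative. The script was checked on simulated data. The labels give both groups replicate numbers 1 to 3. Deviations from group means correlated at 0.49 to 0.63 between libraries with the same number and at 0.0064 or less otherwise, so libraries were taken as paired by number, and a fit with the replicate block stands beside each call. Intervals are 95% intervals from the fit. Pair differences used log2(CPM + 0.5). Counting errors cover counting only, and reads carry no molecular identifiers.

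The 9 genes and all lists were chosen with earlier results of these data known. Partners named with values are those called with the block or not tested (1 of the latter is not reported here), and the 3 genes most like each of the 9 by Pearson's r are named. Fits with other normalizations and filters, with each library or pair left out, and at an adjusted p under 0.01 were tried. Promoters are RefSeq windows on GRCm38.p6.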

Additional observations from a re-analysis of the deposited data

How the results depend on the processing

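In the fit without the replicate block and in all 12 alternatives without it, 0 of the 9 genes and 0 of the 54 partner genes passed. With the replicate block, 3 of the 9 genes passed in the edgeR fit, in DESeq2, after upper-quartile normalization and on total counts alone, and 2 at an adjusted p under 0.01. In blocked fits that left out 1 pair the number ranged from 1 (Tet3, without replicate 2) to 3. For the partner genes the paired fits gave 7 calls with edgeR, 5 with DESeq2, 5 with upper-quartile normalization, 5 with total counts and 3 at an adjusted p under 0.01, and from 2 to 5 with 1 pair left out. The log2 fold change kept its sign in every fit for 8 of the 9 genes, and that of Mbd2 ranged from -0.0068 (without GSK-126 replicate 1, where it reversed) to 0.16 (without DMSO replicate 1). Without the block, leaving out DMSO replicate 2 moved Tet1 to -0.36, Tet3 to -0.19, Dnmt3a to -0.12 and Tet2 to -0.026. The cause of these differences was not tested. At 17 to 51 counts per library, depth limits what can be said of Dnmt3b. Flags for samples far from their group need groups of 4 or more and were not run on groups of 3.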
